A study of Mus musculus with 6 samples.

Results

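Tcim, Sgce, P3h2, Slc14a1, Cpne8, Ctla2a and Ccn1 are 7 genes, of 32285 in the feature tables, that had lower counts in cardiac macrophages from irradiated than from sham-treated wild-type hearts. They were chosen by symbol, each symbol naming 1 row, with that difference already known, so it is described here and not tested. The cells were CD45+ cells from hearts of C57Bl6J mice, profiled by droplet single-cell RNA sequencing 28 days after treatment with a small-animal irradiator. There were 2 sham libraries labelled wild type, 2 wild-type libraries given 12 Gy in 1 fraction, and 2 libraries given the same dose whose titles carry the word Tmem and whose genotype label is STING KO (knockout-labelled below). No sham knockout library was analysed here, so every knockout value is one of irradiated hearts. The labels give no age, sex or allele, and do not state whether the 2 libraries of each group are different mice, so their spread may be technical.

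The genes share no single pathway. Tcim encodes a small regulator that binds the beta-catenin antagonist Cby1, and Ccn1 is a secreted matrix-associated protein of the CCN family, an early-response gene and a classical target of YAP-TEAD. P3h2 hydroxylates prolines of collagens in the endoplasmic reticulum. Sgce encodes epsilon-sarcoglycan, a membrane protein of the dystrophin-associated complex, Slc14a1 a urea transporter, and Cpne8 a calcium-dependent phospholipid-binding copine. Ctla2a is a cysteine protease inhibitor resembling a cathepsin propeptide. The heart holds resident macrophages marked by Lyve1, Folr2, Timd4 and Cd163 beside macrophages that derive from monocytes.

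After removal of barcodes with over 10% mitochondrial counts (23.2 to 33.4% of barcodes per library) and of likely doublets, 31279 of 45904 barcodes were kept, 3394 to 6014 per library. Median depth was 4409 to 4588 UMIs (unique molecular identifiers, 1 per captured transcript) per cell in sham libraries, 5511 to 6373 in irradiated wild-type and 6187 to 6792 in knockout-labelled libraries. Pairs of libraries shared 4 to 27 cell barcodes, at most 0.484%. Clusters were named by marker genes, and 6 of 30 clusters were macrophage-like, with 1220 to 1945 cells per library and a summed level of the 14 macrophage markers of 22537 to 23675 CPM (counts scaled to a fixed total of UMIs of the class) in sham, 22658 to 23066 in irradiated wild-type and 21941 to 22606 in knockout-labelled libraries. Tmem173, which encodes STING, was at 51.2 and 44.2 CPM in sham macrophage-like cells, 57.4 and 53.3 in irradiated wild-type and 51.6 and 49.2 in knockout-labelled ones. A 3' tag need not lie in a deleted part, so this does not check the genotype label.

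Promoters of 3 of the 7 genes, Ccn1, Ctla2a and Cpne8, were in the RefSeq table for GRCm38.p6. Those of Ccn1 and Ctla2a are shown because both genes were lower in irradiated macrophages while Ctla2a was higher in irradiated endothelium (below). Each is the 250 bases before the annotated start, read 5' to 3' on the minus strand. Capitals mark the TEAD motif GGAATG, here as its reverse complement, at -103 to -98 in Ccn1, and the AP-1 motif TGANTCA at -129 to -123 in Ctla2a.
Ccn1 promoter, chr3:145649986-145650235, minus strand: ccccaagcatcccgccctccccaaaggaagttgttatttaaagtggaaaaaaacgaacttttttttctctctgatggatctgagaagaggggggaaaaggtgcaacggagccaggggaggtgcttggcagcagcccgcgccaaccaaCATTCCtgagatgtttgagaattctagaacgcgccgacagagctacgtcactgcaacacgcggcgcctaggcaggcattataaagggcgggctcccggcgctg
Ctla2a promoter, chr13:60936626-60936875, minus strand: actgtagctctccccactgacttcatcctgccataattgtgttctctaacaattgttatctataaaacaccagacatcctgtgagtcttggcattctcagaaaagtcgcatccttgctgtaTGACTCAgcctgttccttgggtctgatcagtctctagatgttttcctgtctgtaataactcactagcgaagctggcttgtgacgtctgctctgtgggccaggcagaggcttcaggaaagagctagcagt
The motifs were counted on both strands, also where they overlapped. Of 32851 promoters of this length, 12.6% held the TEAD motif and 6.75% the AP-1 motif. The second annotated start of Ctla2a has the same AP-1 match at -188 to -182. Neither gene matched PU.1 (GAGGAA, in 23.3% of promoters), the MAF site of TGCTGA (16.1%), the interferon-stimulated response element (2.98%) or the CArG box (1.47%), and the Cpne8 promoter matched none of the motifs searched. A match is a string of letters, not a bound site.

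All 7 genes are protein-coding genes on the minus strand in the GENCODE vM21 annotation of GRCm38. Tcim (ENSMUSG00000056313) lies at chr8:24437180-24438984, Ccn1 (ENSMUSG00000028195) at chr3:145646976-145649981 and P3h2 (ENSMUSG00000038168) at chr16:25959288-26105784. Sgce (ENSMUSG00000004631) lies at chr6:4674350-4747207, Slc14a1 (ENSMUSG00000059336) at chr18:78100091-78142119 and Cpne8 (ENSMUSG00000052560) at chr15:90487482-90679432. Ctla2a (ENSMUSG00000044258) lies at chr13:60934155-60936625, 36707 bases from its paralog Ctla2b, so UMIs of the pair may be split between them and their separate values are uncertain.

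In macrophage-like cells, each of the 7 genes was lower in both irradiated wild-type libraries than in both sham libraries, and each was also lower in both knockout-labelled libraries than in both sham libraries. Of all 12445 genes compared, 28.0% were lower without overlap in the first comparison and 16.5% in the second. The first comparison is the one that chose the genes, and the second shares its sham libraries. Every irradiated library still held UMIs of every gene in these cells, and the part of free RNA in those UMIs was not tested. The comparison that chose the 7 genes called 6.44% of 12448 genes, 2.83% in the lower direction, and by the size of their fold change the 7 ranked between 9 and 35 among the 352 genes called lower there. Knockout-labelled against sham, 4.29% of genes were called, 2.49% as lower.

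Tcim stood at 60.7 and 76.0 CPM in the sham libraries, 11.0 and 14.8 in irradiated wild-type and 12.5 and 16.1 in knockout-labelled libraries. Both irradiated groups lay far below sham and overlapped each other. The log2 fold change of irradiated against sham wild type, fitted by edgeR, was -2.38 ± 0.18 (SE), the largest reduction of the 7 by that estimate. Ccn1 stood at 97.5 and 83.6 CPM in sham, 11.6 and 31.9 in irradiated wild-type and 23.1 and 11.9 in knockout-labelled libraries. The 2 irradiated wild-type libraries differed from each other by more than the 2 sham libraries, and the log2 fold change was -2.01 ± 0.41. It was -1.48 without irradiated wild-type library 1 and -2.95 without library 2.

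P3h2 stood at 41.0 and 31.0 CPM in sham, 9.86 and 10.8 in irradiated wild-type and 10.4 and 11.0 in knockout-labelled libraries, with a log2 fold change of -1.78 ± 0.15. The 4 irradiated libraries lay between 9.86 and 11.0 CPM. Sgce stood at 37.0 and 31.0 CPM in sham, 8.57 and 10.1 in irradiated wild-type and 5.85 and 5.78 in knockout-labelled libraries, with a log2 fold change of -1.84 ± 0.13. It was the 1 gene of the 7 whose knockout-labelled libraries lay below both irradiated wild-type libraries, as 13.9% of all genes did. Cpne8 stood at 24.5 and 23.1 CPM in sham, 4.18 and 6.88 in irradiated wild-type and 5.60 and 7.76 in knockout-labelled libraries, with a log2 fold change of -2.06 ± 0.23.

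Slc14a1 stood at 30.3 and 21.7 CPM in sham, 7.71 and 8.55 in irradiated wild-type and 17.4 and 14.4 in knockout-labelled libraries, with a log2 fold change of -1.65 ± 0.19. Ctla2a stood at 28.7 and 59.6 CPM in sham, 11.6 and 15.4 in irradiated wild-type and 23.9 and 26.2 in knockout-labelled libraries, with a log2 fold change of -1.70 ± 0.32. For these 2 genes the knockout-labelled libraries fell between the other groups, above both irradiated wild-type libraries, a pattern that 42.6% of all genes shared. The 2 sham libraries of Ctla2a differed from each other more than those of any other of the 7 genes, and its log2 fold change was -1.04 without sham library 2. Against sham, the log2 fold changes of the knockout-labelled libraries were -0.81 ± 0.17 for Slc14a1 and -0.93 ± 0.29 for Ctla2a, and between -1.85 ± 0.14 (P3h2) and -2.65 ± 0.13 (Sgce) for the other genes. The Ctla2a value was -0.27 without sham library 2.

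**Figure D1:**
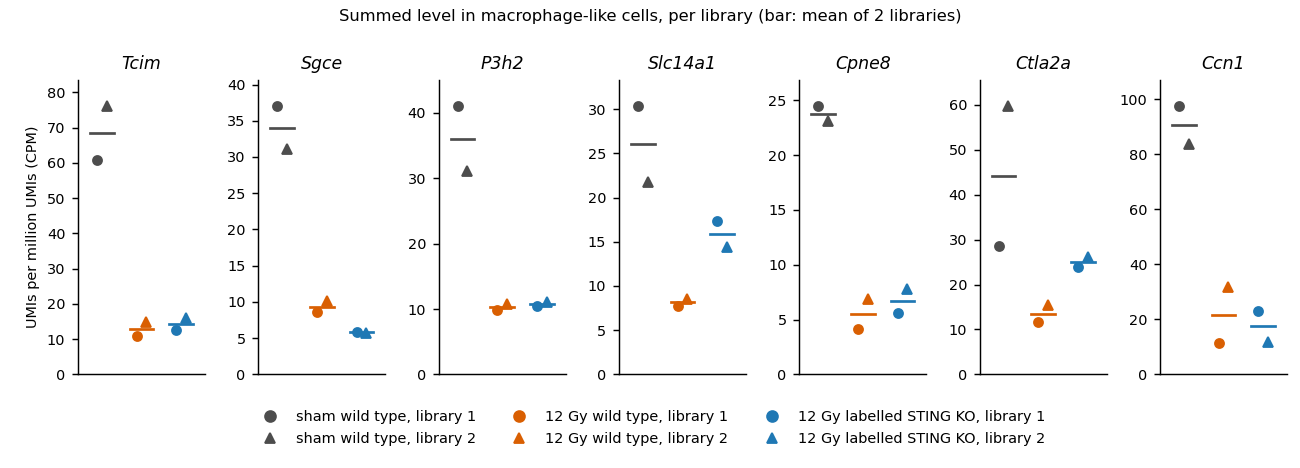
Summed level (CPM) of each gene in macrophage-like cells, 1 point per library and a bar at the mean of the 2 libraries of a group. Each axis starts at 0 and has its own scale. Both irradiated groups lie below sham for all 7 genes, and the knockout-labelled points of Slc14a1 and Ctla2a lie above the irradiated wild-type points.

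The comparison of knockout-labelled with irradiated wild-type macrophage-like cells was tested. It was not used to choose the genes, although it shares the irradiated wild-type libraries with the comparison that was. Of the 7 genes, 1 passed: Sgce was lower by a log2 fold change of -0.80 ± 0.15 (edgeR quasi-likelihood test, Benjamini-Hochberg adjusted p = 0.0425), where 1.16% of all genes were called lower and 1.78% in either direction. Slc14a1 had a log2 fold change of 0.84 ± 0.19 (edgeR adjusted p = 0.0624) and Ctla2a one of 0.76 ± 0.32 (edgeR adjusted p = 0.243). Those 3 genes were the ones with an unadjusted p under 0.05. Tcim (0.02 ± 0.20), P3h2 (-0.07 ± 0.15), Cpne8 (0.13 ± 0.24) and Ccn1 (-0.46 ± 0.43) had log2 fold changes within about 1 SE of 0.

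The Sgce call rested on all 4 irradiated libraries. Its adjusted p by edgeR was 0.0578 without irradiated wild-type library 1, 0.173 without library 2, 0.223 without knockout-labelled library 1 and 0.166 without library 2, always with a lower level in the knockout-labelled cells. Over 13 alternatives it ranged from 0.000165 to 0.223 and passed in 6. Slc14a1 passed in 7 of 13 alternatives, with an edgeR or DESeq2 adjusted p between 9.94e-06 and 0.388 and a log2 fold change between 0.69 and 1.08. Ctla2a passed in 4 of 13, among them the fits without sham library 1 (edgeR adjusted p = 0.0400) and without sham library 2 (0.0465).

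The lower levels were seen in the share of cells with a UMI of each gene as well. Cells were thinned to 2000 UMIs each, since depth per cell differed (median 4880 to 5247 UMIs in sham, 5839 to 6874 in irradiated wild-type and 8069 to 8524 in knockout-labelled macrophage-like cells), and 52 to 162 shallower cells per library were left out. Tcim was detected in 8.62 and 10.7% of sham macrophage-like cells, 1.88 and 1.81% of irradiated wild-type and 2.53 and 1.80% of knockout-labelled cells. Ccn1 was detected in 11.4 and 11.6%, then 1.54 and 3.91%, then 3.30 and 2.03%. Both sham libraries lay well above the irradiated ones for these 2 genes. The 2 irradiated groups overlapped for both.

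P3h2 was detected in 8.32 and 6.37% of sham cells, 1.97 and 1.75% of irradiated wild-type and 2.18 and 2.37% of knockout-labelled cells. Sgce was detected in 7.33 and 6.32%, then 1.28 and 1.69%, then 0.824 and 1.24%. Cpne8 was detected in 3.46 and 4.03%, then 0.514 and 1.23%, then 1.18 and 1.18%. The shares of these 3 genes separated sham from both irradiated groups. Slc14a1 was detected in 6.45 and 4.88% of sham cells, 2.23 and 1.52% of irradiated wild-type and 3.59 and 2.82% of knockout-labelled cells, and Ctla2a in 3.87 and 7.06%, then 1.63 and 2.39%, then 3.18 and 3.27%. The median ratio of sham to irradiated wild-type shares over the 7 genes was 4.22, and 3.15 without thinning, where for example Sgce was detected in 16.8 and 15.2% of sham and 5.08 and 5.07% of irradiated wild-type cells.

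B cell-like cells, thinned alike from median depths of 2058 to 4105 UMIs, were the reference for free RNA. Their shares were at most 0.450% for Tcim, 0.396% for Sgce, 0.141% for P3h2 and 0.151% for Cpne8, and at most 1.80% for Ccn1 and 1.83% for Ctla2a. The lowest irradiated shares of Ccn1 and Ctla2a lay near these maxima, which are taken over all libraries and not library by library. By level in irradiated wild-type libraries, Ccn1 was at 0.701 to 4.34 CPM in B cell-like and 11.6 to 31.9 CPM in macrophage-like cells. Ctla2a was at 4.34 to 6.55 and 11.6 to 15.4 CPM. The part of free RNA in these levels was not tested. Slc14a1 was detected in 0.563 to 4.22% of B cell-like cells, but was at 0 to 1.44 CPM in neutrophil-like and 0 to 2.88 CPM in fibroblast-like cells, so B cells are not a type that lacks it.

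The share of cells holding several of the genes was also lower in irradiated libraries, where each gene alone was found in fewer cells. After thinning, 38.7 and 40.3% of sham macrophage-like cells held a UMI of at least 1 of the 7 genes, 9.14 and 9.08% of at least 2 and 1.47 and 1.33% of at least 3. In irradiated wild-type libraries those shares were 9.76 and 12.1%, 1.11 and 1.87%, and 0.171 and 0.234%. In knockout-labelled libraries they were 14.5 and 12.96%, 1.83 and 1.63%, and 0.353 and 0.113%. Cells with a UMI of a gene also carried more of the 14 resident macrophage genes than cells without: among sham cells, the summed resident level was 10950 CPM in the 694 cells with Tcim against 8834 in the 3081 without, and 11840 against 8887 CPM for Cpne8. Cells with a UMI were deeper (median 6281 against 4826 UMIs for Tcim), and the part of depth in this difference was not tested.

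Cells with Tcim, Cpne8 or Ctla2a, the genes highest in endothelial-like cells, also carried more endothelial markers than cells without. For Tcim these summed to 112 against 71.9 CPM in sham, 153 against 91.3 in irradiated wild-type and 289 against 107 in knockout-labelled cells. For Cpne8 they were 107 against 76.3, 155 against 92.4 and 286 against 111 CPM, and for Ctla2a 121 against 72.8, 141 against 91.5 and 156 against 117 CPM. For Sgce, P3h2, Slc14a1 and Ccn1 cells with a UMI carried less of these markers in all 3 groups, for example 70.8 against 83.05 CPM for Sgce in sham. The part of endothelial RNA in the levels of Tcim, Cpne8 and Ctla2a was not tested.

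**Figure D2:**
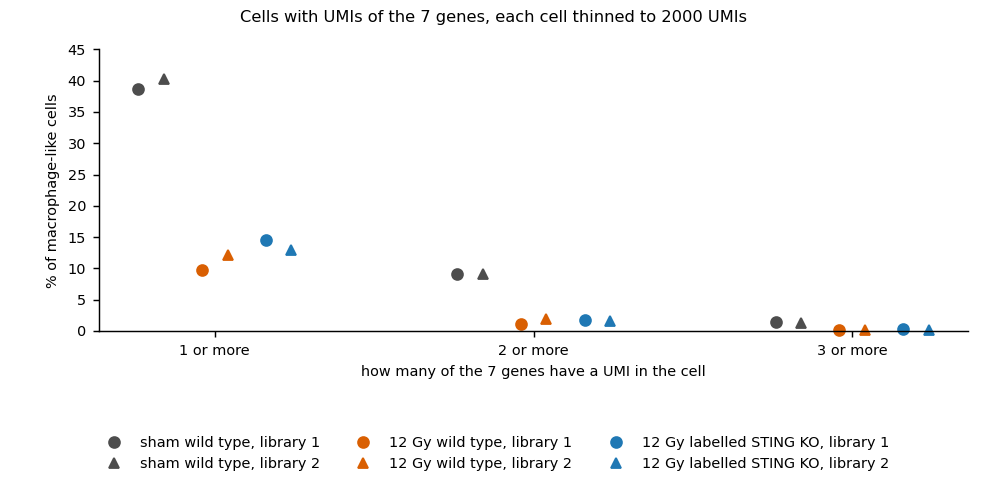
Percent of macrophage-like cells holding a UMI of at least 1, 2 or 3 of the 7 genes, each cell thinned to 2000 UMIs, 1 point per library. Sham libraries lie at 38.7 and 40.3% for at least 1 gene and the 4 irradiated libraries between 9.76 and 14.5%.

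The 6 macrophage-like clusters were led by Mmp13, Tnf and Ccl4 (cluster 1), Lilra5 and Cx3cr1 (cluster 2), Cd209f, Ccl8, Vsig4, Lyve1 and Cd163 (cluster 3), Lyve1, Folr2 and F13a1 (cluster 8), the interferon-induced Ifit3 and Ifit2 (cluster 19), and Alox15, Saa3 and Serpinb2 (cluster 22). Both irradiated wild-type libraries lay below both sham libraries for 7 of 7 genes in cluster 1 (21.6% of all genes there), 6 in cluster 2 (23.0%), 7 in cluster 3 (19.8%), 7 in cluster 8 (19.8%), 7 in cluster 19 (15.4%) and 2 in cluster 22 (11.0%). Both knockout-labelled libraries lay below both sham libraries for 6 genes in cluster 1, 6 in cluster 2 (15.6% of all genes), 6 in cluster 3 (14.3%), 7 in cluster 8 (16.9%), 6 in cluster 19 (12.6%) and 2 in cluster 22 (9.8%), the share of all genes in cluster 1 lying between those of clusters 3 and 2. Ctla2a was the missing gene in clusters 1, 2, 3 and 19. These cells belong to the comparison that chose the genes, so nothing is read from the counts beyond where the difference was seen. Cluster 15 (721 cells, led by Mmp12 and Retnla) scored best for macrophages but failed the naming rule, so it was left unnamed and outside this class. P3h2 there stood at 10.6 to 25.9 CPM in sham, 3.40 to 8.41 in irradiated wild-type and 4.32 to 9.02 in knockout-labelled libraries.

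Tcim was highest in clusters 3 and 22. It stood in cluster 3 at 90.3 and 108 CPM in sham, 21.3 and 26.8 in irradiated wild-type and 21.9 and 32.6 in knockout-labelled libraries, and in cluster 22 at 122 and 111, 6.49 and 30.6, and 44.7 and 57.8 CPM. In cluster 2 it was 23.3 CPM in each sham library and 2.78 to 6.40 CPM in the irradiated ones. Sgce, P3h2 and Slc14a1 were spread over clusters 1, 2, 3, 8 and 19 and lower in cluster 22, where P3h2 and Slc14a1 had no UMI in either sham library (6 and 41 cells). Sgce in cluster 1 stood at 23.2 and 23.7 CPM in sham, 4.28 and 3.56 in irradiated wild-type and 1.89 and 2.22 in knockout-labelled libraries.

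Cpne8 in cluster 1 stood at 15.3 and 10.7 CPM in sham, 0.658 and 0.763 in irradiated wild-type and 1.41 and 2.22 in knockout-labelled libraries. In cluster 3 it was 30.8 and 28.2, 8.74 and 12.0, and 9.56 and 16.0 CPM. Ccn1 was highest in sham cells of clusters 1, 3 and 19: it stood in cluster 1 at 101 and 103, 10.9 and 21.6, and 17.7 and 11.8 CPM, and in cluster 3 at 129.9 and 101, 27.3 and 70.2, and 59.9 and 27.8 CPM. Ctla2a was highest in clusters 3 and 8. It stood in cluster 3 at 41.0 and 91.7 CPM in sham, 16.9 and 20.5 in irradiated wild-type and 33.2 and 46.4 in knockout-labelled libraries, and in cluster 8 at 41.4 and 94.1, 23.96 and 28.0, and 28.6 and 24.6 CPM.

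Within clusters, the knockout-labelled libraries of Ctla2a lay below sham in cluster 8 alone. In cluster 1 it stood at 11.4 and 16.7 CPM in sham, 10.53 and 6.86 in irradiated wild-type and 15.8 and 12.1 in knockout-labelled libraries, and in cluster 2 at 18.7 and 29.7, 4.71 and 20.6, and 22.8 and 28.5 CPM. Sham and knockout-labelled libraries overlapped in both, and in clusters 3 and 19 as well, so the lower level of Ctla2a in knockout-labelled than in sham macrophage-like cells as a whole was not seen in each cluster. In cluster 2 the irradiated wild-type libraries overlapped with sham too.

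**Figure D3:**
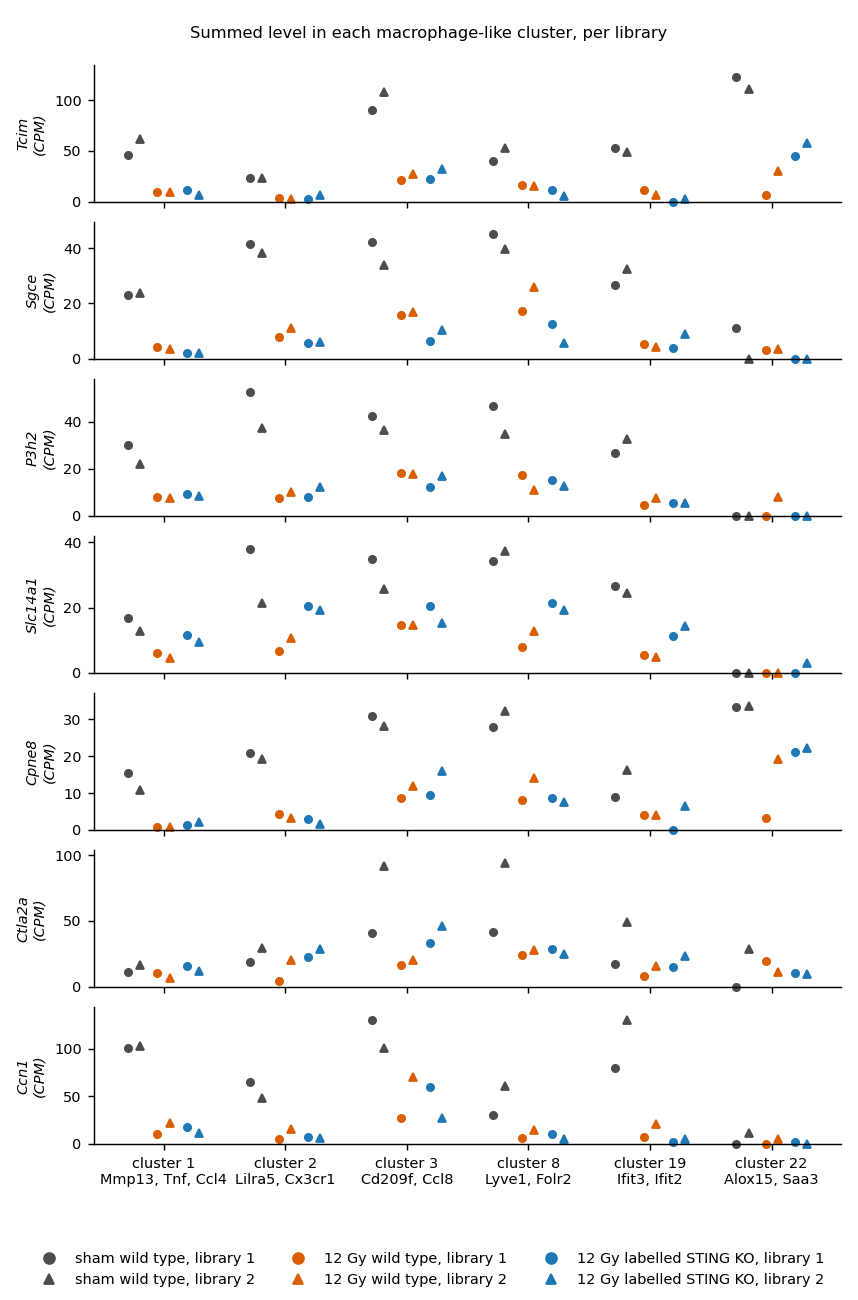
Summed level (CPM) of each gene in the 6 macrophage-like clusters, 1 point per library, each row on its own scale from 0. Sham points of Tcim and Cpne8 lie above both irradiated groups in all 6 clusters, and those of Sgce, P3h2, Slc14a1 and Ccn1 in all but cluster 22 (6 to 95 cells per library), while those of Ctla2a do so in cluster 8 alone.

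The mix of clusters differed between groups. Cluster 3 made up 32.6 and 34.7% of sham macrophage-like cells, 15.3 and 21.9% of irradiated wild-type and 19.7 and 17.6% of knockout-labelled cells, and cluster 19 made up 0.984 and 1.13%, 12.6 and 8.59%, and 2.72 and 5.67%. With each library's cluster levels weighted by the sham mix, 79.8% (Slc14a1) to 89.6% (Tcim) of the log2 difference between irradiated and sham wild type was left. Tcim was then 15.4 CPM in irradiated wild-type against 68.6 in sham libraries, and Slc14a1 10.3 against 26.0 CPM (means of 2 libraries).

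Other genes moved in the same cells, where 6.44% of all genes were called after irradiation (2.83% as lower) and 1.78% between genotypes (1.16% as lower). Of 14 resident macrophage genes, 6 fell after irradiation in wild-type macrophage-like cells and none rose: Cd163, a scavenger receptor (log2 fold change -1.52), Vsig4, a complement receptor (-1.47), Mrc1, F13a1, Gas6 and Igf1, all by edgeR at an adjusted p under 0.05. Their summed level was 9093 to 9497 CPM in sham, 6362 to 7602 in irradiated wild-type and 8481 to 8987 in knockout-labelled libraries, where Mrc1 and F13a1 were higher than in irradiated wild type. Of 18 dissociation and immediate early genes, Jun, Klf2, Klf4 and Socs3 fell after irradiation and Fos, Atf3 and Nr4a1 were lower in knockout-labelled than in irradiated wild-type cells. The summed level of that list was 28028 to 29871, 22824 to 26924 and 19622 to 22059 CPM, and its part in the lower level of Ccn1, itself an early-response gene, was not tested. The 13 monocyte markers summed to 301 to 364 CPM in sham, 691 to 730.0 in irradiated wild-type and 698 to 779.6 in knockout-labelled libraries, and their part was not tested either.

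Free RNA and doublets from other cell types were followed by their markers in macrophage-like cells. Endothelial markers summed to 65.2 to 94.0 CPM in sham, 74.1 to 112 in irradiated wild-type and 114 to 128 in knockout-labelled libraries and 0 of 10 tested fell by edgeR, so these markers were not lower in irradiated cells. Fibroblast markers summed to 158 to 169, 167 to 196 and 184.9 to 185 CPM with 0 of 7 called, mural markers to 21.3 to 23.6, 15.2 to 20.8 and 18.2 to 19.6 CPM with 0 of 5 called, and cardiomyocyte markers to 291 to 293, 225 to 249 and 198 CPM, with Myh6 falling after irradiation and Myl2 lower in knockout-labelled cells. Erythroid markers summed to 78.2 to 269, 72.6 to 259.7 and 7.94 to 8.56 CPM, and 3 of 5 (Hbb-bs, Hba-a1 and Hba-a2) were lower in knockout-labelled than in irradiated wild-type cells, a difference whose part in the genotype values above was not tested.

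Relatives of the 7 genes mostly did not pass the same test of irradiated against sham wild-type macrophage-like cells, and lists are given beside all 12448 genes, whose median log2 fold change was -0.00. Of the beta-catenin genes around Tcim, 1 of 8 tested fell, the Wnt co-receptor Lrp6 (log2 fold change -0.62 ± 0.13, edgeR adjusted p = 0.0307). The median of that list was -0.15, and the destruction-complex gene Apc was higher in knockout-labelled than in irradiated wild-type cells (0.53 ± 0.10, edgeR adjusted p = 0.0478). Of the CCN and YAP-TEAD genes beside Ccn1, 1 of 7 rose, the YAP target Ankrd1 (2.94 ± 0.21 CPM in sham against 7.33 ± 2.06 CPM, SD, n = 2, log2 fold change 1.32 ± 0.27, edgeR adjusted p = 0.0296), and the list's median was -0.20. Ccn2 was at 0.906 ± 0.172 CPM in sham and 0.603 ± 0.096 in irradiated libraries (SD, n = 2).

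Of the collagen-modifying genes beside P3h2, 1 of 10 rose, the prolyl 4-hydroxylase subunit P4ha2 (log2 fold change 0.79 ± 0.19, edgeR adjusted p = 0.0492), with a list median of 0.06. None of 6 dystrophin and sarcoglycan genes beside Sgce passed by edgeR (median -0.14), with Dag1 at 28.5 and 24.7 CPM and Utrn at 25.9 and 22.8 CPM in sham and irradiated wild-type libraries. None of 3 copines passed (median -0.11), with Cpne3 at 58.6 and 53.5 CPM and Cpne1 at 30.5 and 25.3 CPM. Neither of 2 water channels beside Slc14a1 passed (median -0.14), with Aqp1 at 12.3 and 7.97 CPM and Aqp9 at 1.56 and 1.95 CPM. Of 7 genes beside Ctla2a, its paralog Ctla2b fell (111.8 and 173 CPM in sham, 81.5 and 84.0 in irradiated wild-type libraries, log2 fold change -0.77 ± 0.18, edgeR adjusted p = 0.0466), as did the cathepsin inhibitor Cst3 (-0.31 ± 0.07), while the cathepsin Ctsz rose (0.42 ± 0.07), with a median of 0.01.

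Outside macrophages the 7 genes had very different homes. Over the 10 classes with at least 20 cells in every library, and in sham libraries alone, P3h2 and Slc14a1 were highest in macrophage-like cells. P3h2 followed in dendritic cell-like cells (13.6 and 28.8 CPM), and Slc14a1 in NK cell-like cells (22.1 and 15.5 CPM), which overlapped with macrophages. Tcim was highest in endothelial-like cells, above macrophages, with cycling cells next (12.1 and 23.1 CPM). Sgce and Ccn1 were highest in fibroblast-like, then endothelial-like, then macrophage-like, then cycling cells, with no overlap between these neighbours. Cpne8 was highest in endothelial-like cells, followed by fibroblast-like (22.2 and 40.0 CPM) and macrophage-like cells, which overlapped. Ctla2a ran from endothelial-like over NK cell-like and T cell-like to macrophage-like and cycling cells, of which the last 2 overlapped. The plot of levels by class shows the order.

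**Figure D4:**
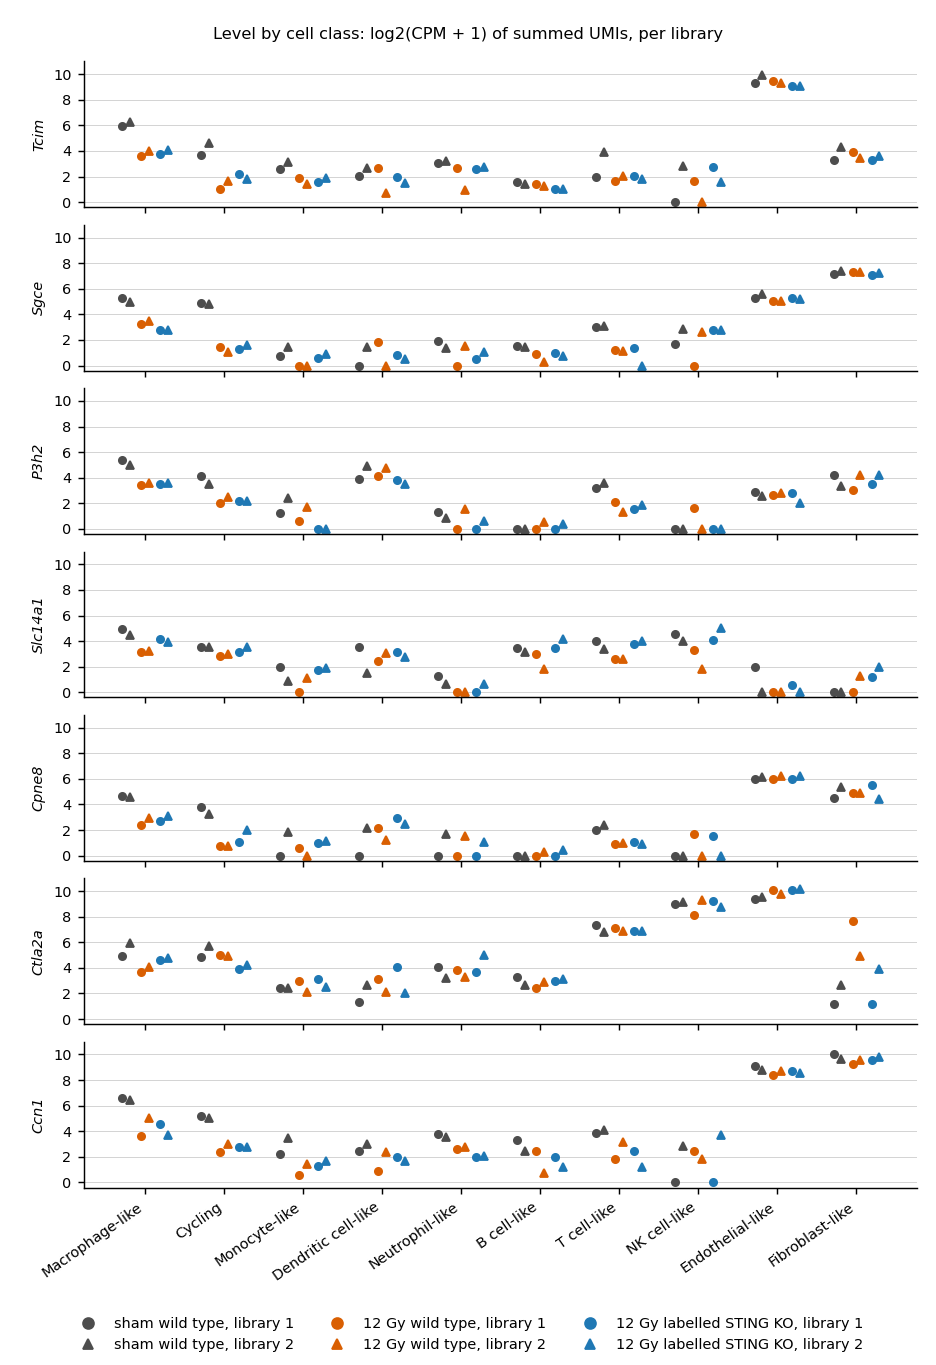
Level of each gene in the 10 classes, as log2(CPM + 1) of summed UMIs, 1 point per library. Sham macrophage-like points lie above all irradiated points, as do sham cycling points except those of Slc14a1 and Ctla2a, while the endothelial-like and fibroblast-like points of Tcim, Sgce, Cpne8 and Ccn1 lie close together in all 3 groups.

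Cycling cells carried the same direction of change. The cluster led by Birc5, Nusap1 and Mki67 held 100 to 348 cells per library and a summed macrophage-marker level of 12188 to 12562 CPM in sham, 9881 to 12341 in irradiated wild-type and 10844 to 11874 in knockout-labelled libraries. They are other barcodes than those that chose the genes, but come from the same libraries and carry macrophage markers. The values are therefore not independent of that choice. After irradiation in wild type, 4 of 7 genes fell, where 0.285% of all 10892 genes were called and 0.202% in the lower direction. Sgce, Tcim and Cpne8 passed the low-count filter only because of their sham libraries, where they were high. Their calls are therefore not separate support. Sgce stood at 29.4 and 27.0 CPM in sham, 1.76 and 1.08 in irradiated wild-type and 1.40 and 1.99 in knockout-labelled libraries, with a log2 fold change of -4.26 ± 0.39 (edgeR adjusted p = 0.0023). Its sham and irradiated levels were far apart, but rested on 34 and 41 against 5 and 5 UMIs.

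Ccn1 stood in cycling cells at 36.3 and 32.3 CPM in sham, 4.22 and 7.10 in irradiated wild-type and 5.86 and 5.96 in knockout-labelled libraries (log2 fold change -2.43 ± 0.29, edgeR adjusted p = 0.0076). Tcim stood at 12.1 and 23.1, 1.06 and 2.15, and 3.63 and 2.43 CPM (-3.27 ± 0.50, edgeR adjusted p = 0.0299), and Cpne8 at 12.97 and 8.58, 0.704 and 0.646, and 1.12 and 3.09 CPM (-3.82 ± 0.64, edgeR adjusted p = 0.0414), the latter from 15 and 13 against 2 and 3 UMIs. All 4 genes had sham libraries well above both irradiated groups. The other 3 did not pass: P3h2 had a log2 fold change of -1.60 ± 0.40 (edgeR adjusted p = 0.141), Slc14a1 one of -0.60 ± 0.34 and Ctla2a one of -0.39 ± 0.25. Ctla2a overlapped between sham (28.5 and 52.1 CPM) and irradiated wild-type libraries (30.6 and 28.8 CPM).

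The calls in cycling cells needed both sham libraries: without sham library 1 the edgeR adjusted p was 0.139 for Sgce and Tcim, 0.176 for Ccn1 and 0.386 for Cpne8, and without sham library 2 it was 0.127, 0.326, 0.217 and 0.326. Tcim (0.0523) and Cpne8 (0.0657) were also lost without irradiated wild-type library 1, and Cpne8 without library 2 (0.108) or knockout-labelled library 2 (0.0555). DESeq2 gave no adjusted p for these genes. Resident macrophage genes in cycling cells summed to 4487 to 5154 CPM in sham, 2716 to 2812 in irradiated wild-type and 3337 to 3984 in knockout-labelled libraries, and neutrophil markers to 844 to 1006, 155 to 654 and 428 to 733 CPM. Their part in the result was not tested. Against sham, knockout-labelled cycling cells also had less Sgce (log2 fold change -3.98 ± 0.37, edgeR adjusted p = 0.0012) and Ccn1 (-2.50 ± 0.28, edgeR adjusted p = 0.0041), 2 of 7 genes where 0.248% of all genes were called, and this shares the sham libraries. Here too Sgce passed the low-count filter only because of its sham libraries, so its call is not separate support. Between knockout-labelled and irradiated wild type, 0 of 7 passed by edgeR (2 at an unadjusted p under 0.05, where 0.165% of all genes were called).

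In endothelial-like cells, 180 to 616 per library, none of Tcim, Sgce, Ccn1, Cpne8 and P3h2 passed the test after irradiation. Tcim stood at 647 and 956 CPM in sham, 691 and 646 in irradiated wild-type and 554 and 552 in knockout-labelled libraries, with a log2 fold change of -0.25 ± 0.17 after irradiation (edgeR adjusted p = 0.407). Sgce stood at 38.7 and 47.0, 32.5 and 32.1, and 38.6 and 36.0 CPM (-0.39 ± 0.17, edgeR adjusted p = 0.208), and Ccn1 at 550.4 and 446, 341 and 422, and 416 and 384 CPM (-0.36 ± 0.14, edgeR adjusted p = 0.169). For Sgce and Ccn1 the sham libraries lay above the irradiated wild-type ones, but the difference did not pass. Cpne8 stood at 63.7 and 69.0, 62.9 and 73.2, and 62.7 and 72.2 CPM, with a log2 fold change of 0.06 ± 0.15.

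Ctla2a went the other way in endothelium. It stood at 661 and 751 CPM in sham, 1114 and 896 in irradiated wild-type and 1068 and 1166 in knockout-labelled libraries, so that all 4 irradiated libraries lay above sham. The log2 fold change was 0.53 ± 0.12 after irradiation in wild type (edgeR adjusted p = 0.0432) and 0.61 ± 0.12 for knockout-labelled against sham (edgeR adjusted p = 0.0239). It was 1 of 6 genes called in each comparison, where 5.36% and 6.45% of all genes were called, 3.04% and 3.56% as higher. The first call was lost without sham library 1 (edgeR adjusted p = 0.210), sham library 2 (0.0604), irradiated wild-type library 1 (0.150) or either knockout-labelled library (0.0922 and 0.0920), and passed in 5 of 13 alternatives with the same sign in all. Summed markers of mural cells, cardiomyocytes, neutrophils and macrophages were lower on average in irradiated endothelial-like cells, opposite to Ctla2a. B cell, monocyte, fibroblast and erythroid markers there overlapped between sham and irradiated wild-type libraries. Mural markers summed to 295 to 341 CPM in sham, 156 to 206 in irradiated wild-type and 124 to 162 in knockout-labelled libraries, and cardiomyocyte markers to 924 to 1233, 509 to 654 and 589 to 603 CPM, both without overlap between sham and irradiated libraries. Neutrophil markers summed to 672 to 1924, 211 to 691 and 291 to 445 CPM, and macrophage markers to 452 to 911, 226 to 498 and 316 to 319 CPM. The endothelial markers themselves summed to 21676 to 25941, 21954 to 23428 and 22577 to 23063 CPM, with overlap. The part of these differences in the Ctla2a result was not tested. Its paralog Ctla2b stood at 54.1 and 83.9, 110.0 and 95.1, and 83.6 and 78.04 CPM (0.58 ± 0.20 after irradiation, edgeR adjusted p = 0.119). Ctla2a was also higher in irradiated libraries of cluster 21, led by the pericyte gene Rgs5 and Notch3 but mixed with endothelial markers: 198 and 202 CPM in sham, 543 and 393 in irradiated wild-type and 571 and 431 in knockout-labelled libraries.

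In fibroblast-like cells, 30 to 119 per library, Ccn1 stood at 1025 and 788 CPM in sham, 605 and 755 in irradiated wild-type and 740.0 and 899.7 in knockout-labelled libraries, and Sgce at 141 and 171, 162 and 157, and 134 and 147 CPM. Neither passed (log2 fold changes -0.43 ± 0.18 and 0.01 ± 0.20, edgeR adjusted p = 0.878 and 1.00). Ctla2a stood at 1.23 and 5.33 CPM in sham, 198 and 29.9 in irradiated wild-type and 1.27 and 14.4 in knockout-labelled libraries, with 1 library far above the rest and a log2 fold change of 4.83 ± 1.03 that did not pass (edgeR adjusted p = 0.306). Endothelial markers in fibroblast-like cells ranged from 25.2 to 139.6 CPM in irradiated wild-type and 50.5 to 52.0 CPM in sham libraries, and their part was not tested. In all, 0 of 6 genes passed by edgeR after irradiation (2 at an unadjusted p under 0.05, where 0.0118% of all genes were called), and 0 of 6 between genotypes (1 unadjusted, 0.0588%).

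**Figure D5:**
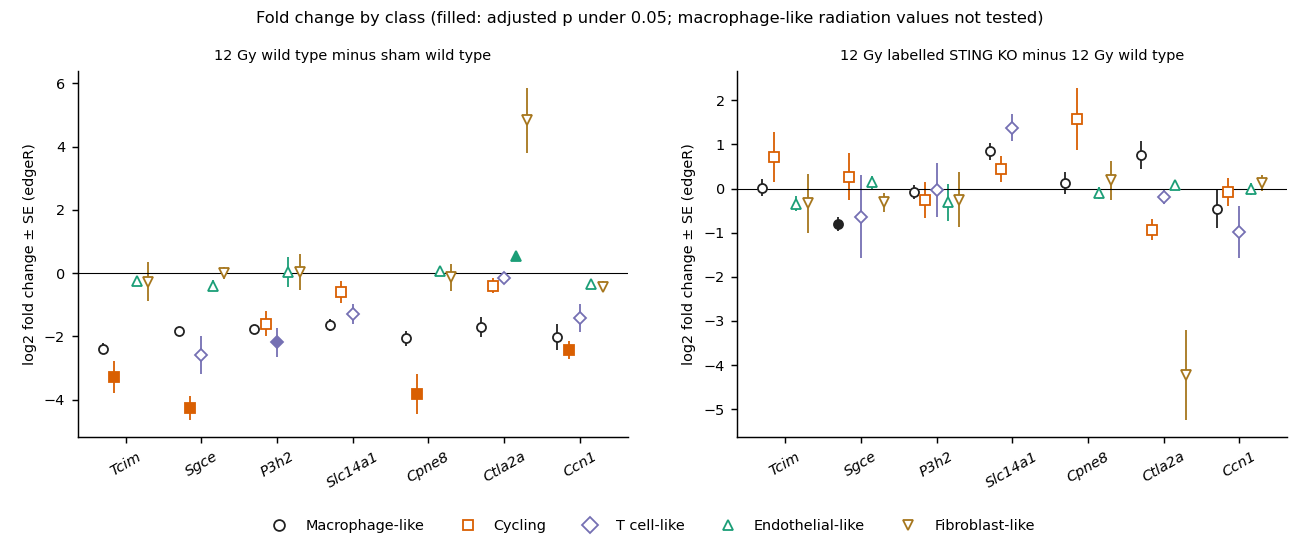
Log2 fold change ± SE by edgeR of each gene in 5 classes, for irradiated against sham wild type (left) and knockout-labelled against irradiated wild type (right), where filled symbols passed an adjusted p of 0.05. Macrophage-like values at left were not tested because they chose the genes. Cycling values of Tcim, Sgce, Cpne8 and Ccn1 and the T cell-like value of P3h2 are filled below 0 at left and the endothelial Ctla2a value above 0, and at right the macrophage-like Sgce value is filled. In cycling cells Tcim, Sgce and Cpne8, and in T cell-like cells P3h2, passed the low-count filter only because of sham, so those calls are not separate support.

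Slc14a1 was also found in B, NK and T cell-like cells. It stood in B cell-like cells at 9.75 and 8.05 CPM in sham, 6.95 and 2.57 in irradiated wild-type and 10.1 and 16.6 in knockout-labelled libraries. In NK cell-like cells it was 22.1 and 15.5, 8.72 and 2.62, and 15.7 and 31.8 CPM, and in T cell-like cells 14.9 and 9.71, 5.12 and 5.03, and 12.6 and 14.9 CPM. In all 3 classes both sham and both knockout-labelled libraries lay above both irradiated wild-type libraries, and sham and knockout-labelled libraries overlapped in NK and T cell-like cells. The share of all genes with that order was not counted in these classes. In macrophage-like cells 28.0% of genes had irradiated wild type below sham, and 42.6% had knockout-labelled above irradiated wild type. After irradiation the log2 fold changes were -1.20 ± 0.52, -1.55 ± 0.75 and -1.29 ± 0.32 (edgeR adjusted p = 0.459, 0.657 and 0.0895). Between genotypes they were 1.72 ± 0.44, 1.81 ± 0.72 and 1.38 ± 0.31 (edgeR adjusted p = 0.102, 0.294 and 0.0806). None passed, where 0.215% (B), 1.13% (NK) and 0.403% (T) of all genes were called between genotypes, and all 3 genotype values had an unadjusted p under 0.05.

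T cell-like cells held low levels of most other members. P3h2 and Sgce passed the low-count filter there only because of their sham libraries, where they were high, so their test results are not separate support. P3h2 stood at 8.42 and 10.8 CPM in sham, 3.41 and 1.44 in irradiated wild-type and 1.91 and 2.56 in knockout-labelled libraries. It fell after irradiation by a log2 fold change of -2.18 ± 0.46 (edgeR adjusted p = 0.0499), 1 of 5 genes tested where 0.816% of all genes were called. It was lost without either sham library (0.224 and 0.387), without irradiated wild-type library 2 (0.222) and without either knockout-labelled library (0.0948 and 0.0830), and passed in 3 of 11 alternatives. Knockout-labelled against sham, 0 of 5 passed by edgeR (4 at an unadjusted p under 0.05, P3h2 and Sgce among them, where 0.649% of all genes were called). Sgce stood at 6.93 and 7.55, 1.28 and 1.20, and 1.53 and 0 CPM (-2.58 ± 0.60, edgeR adjusted p = 0.0724), and Ccn1 at 13.4 and 16.2, 2.56 and 7.91, and 4.59 and 1.28 CPM (-1.41 ± 0.44, edgeR adjusted p = 0.163). These cells carried 4023 to 5489 CPM of macrophage markers in sham, 4943 to 4984 in irradiated wild-type and 4261 to 6067 in knockout-labelled libraries, with overlap between groups. Their resident macrophage genes summed to 977 to 1457, 713 to 1062 and 1081 to 1657 CPM. Markers of 3 other types were higher in all irradiated than in sham libraries: neutrophil markers at 256 to 439.7, 486 to 931 and 647 to 1063 CPM, monocyte markers at 1072 to 1379, 1534 to 1617 and 1565 to 1812 CPM, and fibroblast markers at 89.1 to 94.9, 106 to 115 and 132 to 135 CPM. The part of these lists in the P3h2 result was not tested. Nor was that of RNA from macrophages, in which P3h2 was itself lower after irradiation.

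Ctla2a in T cell-like cells stood at 166 and 113 CPM in sham, 141 and 118 in irradiated wild-type and 115 and 118 in knockout-labelled libraries, and in NK cell-like cells at 513 and 554, 286 and 631, and 608 and 422 CPM. Groups overlapped in both classes, with log2 fold changes after irradiation of -0.16 ± 0.16 and -0.18 ± 0.26 (edgeR adjusted p = 0.727 and 0.926). In type 2 innate lymphoid-like cells, too few to test (5 to 73 cells per library), it was 431 and 568, 170.0 and 1029, and 834 and 518 CPM. P3h2 in dendritic cell-like cells stood at 13.6 and 28.8 CPM in sham, 16.9 and 26.6 in irradiated wild-type and 13.2 and 10.2 in knockout-labelled libraries, with log2 fold changes of 0.09 ± 0.41 after irradiation and -1.04 ± 0.37 between genotypes (edgeR adjusted p = 0.992 and 0.385). The groups overlapped in the first comparison and not in the second, a separation whose share over all genes was not counted in this class.

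In the remaining tests edgeR called none of the genes after irradiation in B cell-like (0 of 2, 1 at an unadjusted p under 0.05, background 0.0%), NK cell-like (0 of 2, none unadjusted, 0.147%), dendritic cell-like (0 of 2, none unadjusted, 0.0122%), monocyte-like (0 of 1, none unadjusted, 0.103%) and neutrophil-like cells (0 of 3, 1 unadjusted, 0.0152%). The unadjusted neutrophil gene was Tcim, at 7.19 and 8.52 CPM in sham, 5.24 and 0.949 in irradiated wild-type and 4.93 and 5.88 in knockout-labelled libraries. Tcim passed the low-count filter there only because of its sham libraries and had 3 UMIs in irradiated wild type, so its value is not separate support. Between genotypes edgeR called none in endothelial-like (0 of 6, none unadjusted, 0.0649%), dendritic cell-like (0 of 2, 1 unadjusted, 0.0856%), monocyte-like (0 of 1, none unadjusted, 0.792%) and neutrophil-like cells (0 of 3, none unadjusted, 0.198%). DESeq2 called none of those to which it gave an adjusted p. With 2 libraries a group, an exact permutation test of a single value could not go below p = 0.333 and was not used.

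The members were unlike each other across the 10 classes. Pearson's r of log2(CPM + 1) over the class means, a description over 10 classes that share libraries, was highest between Sgce and Ccn1 (0.955) and between Cpne8 and Ccn1 (0.937), and lowest between Slc14a1 and Ccn1 (-0.457). The genes most like each member by that measure were Etl4, Unc13b and Fabp3 for Tcim (0.978, 0.974 and 0.970), Fut10, Cp and L3hypdh for Sgce (0.983, 0.981 and 0.977), Gm3336, Spire1 and Zmynd15 for P3h2 (0.967, 0.955 and 0.949), and Coro7, Tspan32 and Galnt12 for Slc14a1 (0.939, 0.938 and 0.927). For Cpne8 they were Phlda3, Dst and Iigp1 (0.985, 0.983 and 0.983), for Ctla2a Hid1, Rgs16 and 4930486L24Rik (0.966, 0.965 and 0.953), and for Ccn1 Rhoj, Mxra7 and Ankrd46 (0.994, 0.991 and 0.989).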

How the data were processed

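Counts: the authors deposited, per the file headers, unnormalized whole-number UMI counts in 1 matrix for each of the 6 libraries, and the labels' protocols name the 10x 3' version 3 kit. Cell Ranger 5.0.0, the mm10 build and Seurat 3 are named in the submitters' processing notes, with no role given for Seurat. Genes outside the tagged 3' end are not seen, and paralogs can share UMIs. Total counts per library were 31650962 to 59675213.

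From these counts, barcodes with fewer than 200 genes or over 10% mitochondrial counts were removed. The automatic doublet threshold marked 0 to 3 cells per library and had not worked, so the highest-scoring cells were removed at 0.8% per 1000 cells recovered (98 to 321 per library). Cells were clustered (Python 3.11.15, scanpy 1.11.5, 2000 variable genes, 30 components, Leiden resolution 1) and clusters were named from marker lists, with at least 3 markers detected and no second lineage over 0.5 of the first (cycling cells excepted). UMIs were summed per library and class (at least 20 cells in every library) and fitted by edgeR 4.0.16 (R 4.3.3) in 1 model of the 6 libraries (filterByExpr, TMM, quasi-likelihood test), which was tested on simulated counts. Calls have a Benjamini-Hochberg adjusted p under 0.05 over all genes of the class and contrast. Replicates are 2 libraries per group and p-values measure only the spread between them.

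The 7 genes, the gene lists, the tests and the alternatives were chosen with earlier results of these data known. Genes named beyond the 7 are, for each member, the 3 with the highest Pearson correlation over class means among genes of at least 10 CPM, and of each list of relatives those called in a tested contrast or else the 2 with the highest macrophage level. Alternatives were DESeq2 1.42.0, no filter on low counts, the replicate number as a block, only the 4 libraries compared, a 5% mitochondrial limit, doublets kept, Leiden resolution 0.5, each library left out and, for shares, 1000 UMIs per cell or no thinning. Thinning drew 2000 UMIs per cell.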

Additional observations from a re-analysis of the deposited data

Results flagged for a closer look

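Ctla2a had opposite directions in different cells, every library of one class moving one way and every library of the other the opposite way, and the difference between the classes was not tested. After irradiation in wild type the log2 ratio of mean CPM was 0.51 in endothelial-like and -1.71 in macrophage-like cells, where the second direction was fixed by how the genes were chosen. Between knockout-labelled and irradiated wild type it was 0.894 in macrophage-like, -0.878 in cycling and -0.153 in T cell-like cells. None of those 3 genotype values passed the edgeR test (adjusted p = 0.243, 0.195 and 0.663).

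Sgce was likewise higher in both knockout-labelled than in both irradiated wild-type libraries in endothelial-like cells (0.208) and lower in fibroblast-like cells (-0.183). The difference was not tested, and neither class passed on its own (edgeR adjusted p = 0.787 and 0.817). The share of all genes with such opposite directions was not counted, for Sgce or for Ctla2a.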

How the results depend on the processing

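Each fold change of the 7 genes in macrophage-like cells after irradiation stayed below 0 in 91 of 91 values over the alternatives (-2.95 to -0.91). Their median was -1.84, -1.97 to -1.71 with each library left out and -2.52 at Leiden resolution 0.5, where a cluster of 3777 cells led by the resident genes Cd209f, Vsig4, Lyve1, Folr2, Cd163 and Timd4 was left unnamed, so that value describes macrophage-like cells without it. The median of knockout-labelled against sham was -1.93, -2.06 to -1.81 with each library left out and -2.86 at that resolution. The share ratio of 4.22 was 3.15 when not thinned.

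Counts of the 7 genes called moved more. For genotype in macrophage-like cells the count of 1 became 2 with DESeq2, 4 with no filter, 2 with only the 4 libraries compared, 0 at the 5% mitochondrial limit and 0 to 3 with each library left out. After irradiation, the count of 4 in cycling cells was 0 to 4 with each library left out. The count of 1 in endothelial-like cells became 0 with only the 4 libraries compared and at the 5% limit, and 0 to 2 with each library left out. The count of 1 in T cell-like cells became 5 with no filter, 0 with only the 4 libraries compared, 2 with doublets kept, 0 at the 5% limit and 0 to 1 with each library left out. Counts of 0 became 1 with no filter after irradiation in fibroblast-like cells and between genotypes in B cell-like, cycling, fibroblast-like and T cell-like cells. Leaving out 1 library gave 0 to 1 after irradiation in fibroblast-like and NK cell-like cells, and between genotypes in B cell-like, fibroblast-like and NK cell-like cells. The cause was not tested for any of these. Cycling cells could not be fitted at the 5% limit (under 20 cells in a library).

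Counts over all genes moved as well. In macrophage-like cells they were 221 for genotype (432 with DESeq2, 1104 with no filter, 338 at resolution 0.5, 7 at the 5% limit, 20 to 295 with each library left out) and 802 after irradiation (1753 with no filter, 1306 at resolution 0.5, 15 at the 5% limit, 242 to 547 with each library left out). After irradiation they were 31 in cycling (63 with DESeq2, 467 with no filter, 0 to 89 with each library left out), 578 in endothelial-like (1514 with no filter, 166 with only 4 libraries, 106 at the 5% limit, 68 to 1113) and 83 in T cell-like cells (452 with no filter, 49 with only 4 libraries, 287 at resolution 0.5, 0 at the 5% limit, 0 to 173). Between genotypes they were 18 in cycling (63 with DESeq2, 358 with no filter, 10 at resolution 0.5, 11 to 125), 7 in endothelial-like (30 with DESeq2, 276 with no filter, 4 with only 4 libraries and with doublets kept, 20 at resolution 0.5, 2 at the 5% limit, 4 to 74) and 41 in T cell-like cells (351 with no filter, 24 with only 4 libraries, 83 at resolution 0.5, 1 at the 5% limit, 9 to 196).

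Whether the replicate numbers pair the libraries was not settled. Deviations from the group means of same-numbered libraries correlated at 0.178, 0.122 and 0.063 in macrophage-like, -0.263, -0.0044 and -0.048 in endothelial-like and 0.074, 0.080 and 0.050 in cycling cells. No reference was computed for these values. With the replicate block, 2 genes passed for genotype in macrophage-like cells (Sgce and Slc14a1), 1 in B cell-like cells, and 0 after irradiation in endothelial-like and T cell-like cells. All-gene counts became 90 in cycling, 177 in endothelial-like and 41 in T cell-like cells after irradiation, and 82 in cycling and 4 in endothelial-like cells between genotypes. The block changed no other count of the 7 genes.

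Depth limits the low classes: in cycling cells irradiated wild-type levels of Tcim, Sgce and Cpne8 rest on 2 to 10 UMIs per library, and a gene without a UMI in a class was not detectable at this depth.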

Other observations

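Peg10, named after its values were seen, starts 98 bases from Sgce on the opposite strand (chr6:4747306-4760517, GRCm38) and is, like Sgce, an imprinted gene expressed from the paternal allele. In macrophage-like cells it stood at 7.29 and 5.76 CPM in sham, 1.39 and 1.51 in irradiated wild-type and 2.22 and 1.74 in knockout-labelled libraries (log2 fold change -2.14 ± 0.27 after irradiation). In cycling cells it stood at 6.05 and 8.58, 0 and 0.215, and 1.12 and 0.883 CPM, from 7 and 13 UMIs in sham against 0 and 1 in irradiated wild-type libraries. Both irradiated groups lay below sham in both classes, as for Sgce. In endothelial-like cells, where Sgce did not pass, Peg10 was at 5.69 and 3.21, 0.524 and 3.13, and 2.73 and 1.95 CPM. The macrophage-like values come from the comparison in which Sgce was chosen. In cycling cells Peg10 passed the low-count filter only because of sham. Its values are therefore described and not tested.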
